A study of Mus musculus with 12 samples.

Results

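The genes described here are 10 genes of the circadian clock and of its PAR bZIP output branch, namely Per1, Per2, Per3, Dbp, Hlf, Tef, Nr1d1, Nr1d2, Arntl and Clock. They were found by symbol in the count tables of 12 mouse brain libraries and made up 10 of 23282 gene rows. The set was chosen from earlier results on the same libraries, for the fall of Hlf in HD mice and because clock disruption is known in this mouse model. The levels of Hlf in HD mice against any other group are therefore given as a description, with no test. The HD mice were R6/2 mice, which carry the first exon of the human huntingtin gene with an expanded CAG repeat, driven by the human huntingtin promoter, beside their own intact huntingtin genes. Their WT littermates lacked the transgene. Brains were sampled at 8 weeks of age, which the labels call pre-symptom, and at 13 weeks, called post-symptom, and the same ages are called normal for WT mice. Striatum and cortex were sequenced separately, with 2 libraries for each HD group of age and region (replicates 1 and 2) and 1 for each WT group. The labels do not say that libraries came from separate mice, nor whether the regions of a shared number belong to 1 mouse, so p-values measure the spread between these libraries. Time of day at tissue collection and the light schedule are not given in the sources used here. For genes that cycle over the day, a difference in collection hour between groups cannot be told apart from a difference with age or genotype.

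The clock is a loop of transcription and repression that runs in most cells. CLOCK and BMAL1, the product of Arntl, bind E-boxes and switch on the Per and Cry genes, whose proteins return to block that activity. The same pair switches on Nr1d1 and Nr1d2, which encode the nuclear receptors REV-ERB alpha and beta, repressors of Arntl through ROR elements, and also Dbp. DBP, HLF and TEF are the PAR bZIP factors, which bind D-boxes in output genes and in Per promoters, and which in brain are known to control enzymes of vitamin B6 metabolism. Per1 is also an immediate target of CREB and so responds to neuronal activity.

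Libraries held 8814386 to 11242872 counts in HD mice and 9394255 to 12091201 in WT mice. All levels below are normalised CPM, that is counts divided by library size after scaling by TMM factors, which adjust for differences in RNA composition between libraries. The 10 genes were well measured except Arntl (45 to 143 counts per library) and Per3 (76 to 221 counts). All 10 passed the filter on low counts in every comparison. Striatal projection neuron markers summed to between 1327 and 7442 CPM in striatum and 115 to 360 CPM in cortex, and all 7 of those tested were higher in striatum, as the region labels say. The library labelled HD pre-symptom striatum replicate 2 stood apart, with 21020 CPM of oligodendrocyte markers against 3414 CPM in replicate 1, and 2147 CPM of striatal projection neuron markers against 6905 CPM. Thalamus or choroid plexus markers reached 1662 CPM in that library and 2989 CPM in HD post-symptom cortex replicate 2, against 170 CPM or less in the other 10. By Xist, replicate 1 of each HD group was male (0.210 to 6.81 CPM) and replicate 2 female (112 to 179 CPM), the WT post-symptom libraries were female (70.1 and 138 CPM) and the WT pre-symptom libraries male (0.425 and 1.81 CPM).

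Promoter windows from 250 bases before to 50 after a transcript start (RefSeq, GRCm38.p6) were found for 9 of the 10 genes, in 14 windows. Per2 was not matched. Letters searched on both strands were the E-box CACGTG, held by 7.15% of 32851 promoter windows of all genes, the D-box TTATGNAA (3.38%), the cAMP response element TGACGTCA (1.79%) with its half-site TGACGT (7.51%), and the core TAGGTNA of the ROR element (8.29%). The sites found are shown because E-boxes, D-boxes and ROR elements are known to be bound by products of these genes or their relatives, and cAMP response elements by CREB. Capitals mark the matched letters, and each stretch is 30 bases, written 5′ to 3′ on the strand of the gene.
Per1 E-box, chr11:69098771-69098800, + strand: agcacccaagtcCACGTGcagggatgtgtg
Per1 D-box, chr11:69098914-69098943, + strand: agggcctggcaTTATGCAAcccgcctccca
Per1 half-site, chr11:69100008-69100037, + strand: gagctcagcggcTGACGTcggtttccctgg
Per3 D-box, chr4:151044852-151044881, - strand: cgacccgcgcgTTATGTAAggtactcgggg
Per3 D-box, chr4:151044805-151044834, - strand: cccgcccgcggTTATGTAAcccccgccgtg
Hlf cAMP response element, chr11:90390908-90390937, - strand: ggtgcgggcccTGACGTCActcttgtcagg
Tef E-box, chr15:81802534-81802563, + strand: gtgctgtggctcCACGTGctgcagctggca
Tef E-box, chr15:81811264-81811293, + strand: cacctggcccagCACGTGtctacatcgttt
Arntl ROR core, chr7:113207485-113207514, + strand: ggagcggattggtcggaaagTAGGTTAgtg
Arntl ROR core, chr7:113207530-113207559, + strand: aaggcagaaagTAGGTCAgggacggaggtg
The Per1 E-box lay 166 bases and the D-box 24 bases before the start of 1 transcript, and the half-site lay 132 bases before the start of another. The Per3 D-boxes lay 205 and 158 bases before the start, and the Tef E-boxes 127 and 138 bases before the starts of separate transcripts. The Arntl cores lay 40 and 30 bases after the starts of 2 overlapping transcripts. In the windows of Dbp, Nr1d1, Nr1d2 and Clock none of these letters occurred, which says only that they are not in these 300 bases.

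The first comparison asked how the genes changed in HD mice between 8 and 13 weeks, in 1 model of the 8 HD libraries that kept a term for region. Dbp, Nr1d1 and Per1 fell, each below the pre-symptom libraries of the same region without overlap, and Hlf was lower in the same way. Of the 9 genes other than Hlf, 3 were lower and none higher by edgeR's quasi-likelihood test at a Benjamini-Hochberg adjusted p of 0.05 over all 13944 genes tested, where 4.53% of genes were lower. Likewise 3 of 9 lay below without overlap in both regions, against 11.3% of all genes tested. The median log2 fold change of the 9 was -0.28, against 0.00 over all genes.

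**Figure D1:**
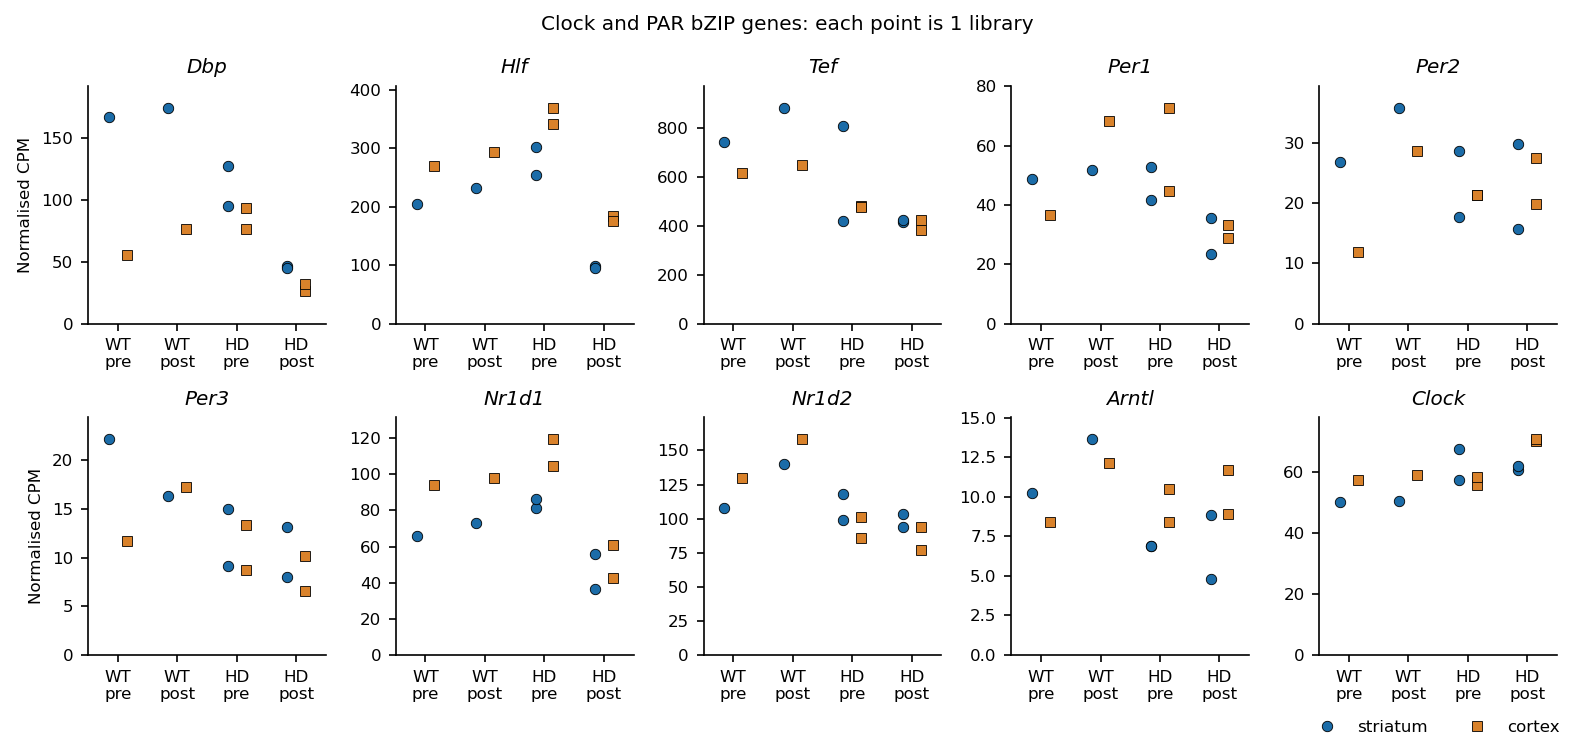
Normalised CPM of each gene (y axis, from 0) in each of the 12 libraries, by genotype and age (x axis), with circles for striatum and squares for cortex. For Dbp, Hlf, Nr1d1 and Per1 the HD post-symptom points lie below the HD pre-symptom points of the same region, while Per2, Per3, Nr1d2 and Arntl overlap.

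Dbp (chr7:45705088-45710203, + strand), a direct target of CLOCK and BMAL1, had the largest fall of the 9 genes tested. In striatum it stood at 127 and 95.4 CPM in the pre-symptom libraries and at 46.4 and 44.7 CPM in the post-symptom libraries. In cortex it went from 76.8 and 93.5 CPM to 26.6 and 31.7 CPM. Every post-symptom library thus lay under every pre-symptom library, in both regions. The fitted level was 2.64-fold lower (log2 fold change -1.40 ± 0.14 SE, n = 4 libraries against 4, edgeR adjusted p = 0.00153), and the call held without any 1 library (highest edgeR adjusted p = 0.0151).

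Hlf (chr11:90336536-90390895, - strand), named for hepatic leukemia factor and abundant in adult brain, followed the same course by choice of the set. Its level went from 254 and 303 CPM to 97.9 and 94.2 CPM in striatum and from 369 and 341 CPM to 184 and 176 CPM in cortex. The difference was -1.25 ± 0.13 (SE, log2), at -1.50 in striatum and -0.99 in cortex. Replicates were close, with a post-symptom SD of 2.59 CPM in striatum and 5.51 CPM in cortex (n = 2 each). Tef (chr15:81802421-81826863, + strand), the third PAR bZIP gene, behaved differently within HD mice. It stood at 810 and 419 CPM in pre-symptom striatum and at 418 and 425 CPM in post-symptom striatum, so that only 1 library was high. In cortex the levels were 481 and 479 CPM before and 383 and 426 CPM after. The change did not pass the test (log2 fold change -0.38 ± 0.18, edgeR adjusted p = 0.237). Over the 8 fits without 1 library the change of Tef ranged from -0.52 to -0.15 and passed in 1. That fit, with -0.52, left out the striatal library rich in oligodendrocyte markers, which was the low one of its pair.

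Among the Per genes, which encode the repressors of CLOCK and BMAL1, only Per1 (chr11:69095217-69109960, + strand) passed. It stood at 41.8 and 52.8 CPM in pre-symptom and 23.4 and 35.6 CPM in post-symptom striatum. In cortex it stood at 44.7 and 72.9 CPM before and 28.8 and 33.3 CPM after. The groups did not overlap, but the gap was small beside the spread, and the fall of 1.73-fold (log2 fold change -0.79 ± 0.20, edgeR adjusted p = 0.0458) was past the threshold in 3 of the 8 fits without 1 library. It was lost without HD post-symptom striatum replicate 1 or any 1 of the 4 cortex libraries (edgeR adjusted p = 0.0767 to 0.157). Per2 (chr1:91415982-91459324, - strand) ranged from 15.6 to 29.7 CPM over the 8 HD libraries with no separation of the ages (log2 fold change 0.07 ± 0.23, edgeR adjusted p = 0.887). Per3 (chr4:151003652-151044665, - strand), which lies inside the larger gene Camta1 on the same strand, ranged from 6.53 to 15.0 CPM and also overlapped (-0.28 ± 0.27, edgeR adjusted p = 0.595).

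The receptor Nr1d1 (chr11:98767932-98775333, - strand) fell and its paralog Nr1d2 (chr14:18204054-18239127, - strand) did not pass the test. Nr1d1 went from 81.2 and 86.3 CPM to 36.4 and 55.8 CPM in striatum and from 104 and 119 CPM to 42.5 and 60.7 CPM in cortex. Its fall was 1.97-fold (log2 fold change -0.98 ± 0.17, edgeR adjusted p = 0.0124), past the threshold in 5 of the 8 fits without 1 library and lost without HD post-symptom cortex replicate 1 or either HD pre-symptom cortex library (edgeR adjusted p = 0.0540 to 0.0612). Nr1d2 stood between 85.8 and 118 CPM before and between 76.9 and 103 CPM after (-0.12 ± 0.12, edgeR adjusted p = 0.591). Neither activator passed the test. Arntl (chr7:113207465-113314126, + strand) stood between 4.81 and 11.7 CPM over the HD libraries (0.07 ± 0.25, edgeR adjusted p = 0.900), and Clock (chr5:76209868-76304792, - strand) between 55.5 and 70.6 CPM (0.15 ± 0.12, edgeR adjusted p = 0.508).

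The calls over both regions rested on several libraries. Without HD post-symptom cortex replicate 1, or without either HD pre-symptom cortex library, 1 of the 9 genes was called. Over all genes those fits called 211 to 213, against 900 in the full fit. Without HD pre-symptom striatum replicate 2, 4 of the 9 were called, and 1518 of all 14300 genes. An exact permutation test of ages within region has 36 arrangements and a smallest two-sided p of 0.0556, and Dbp, Nr1d1 and Per1 each gave that p. Any gene that lies below without overlap in both regions must give it, and 11.3% of all genes tested lay so. It therefore adds nothing to the separation given above. Astrocyte markers, summed over 7 genes, stood at 4409 to 5820 CPM in pre-symptom HD libraries and 2935 to 3361 CPM in post-symptom ones. None of the 7 was at 0 in any library. Singly they were mixed, with log2 fold changes over both regions from -0.92 to 0.25 and a median of -0.46. Of the 7, 1 was called lower (Slc1a2), where 4.53% of all genes were lower. The part of the astrocyte markers in these results was not tested. In these bulk samples fewer cells of a type and less RNA per cell cannot be told apart.

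By region, Dbp was called in cortex (log2 fold change -1.55 ± 0.20, edgeR adjusted p = 0.0212), the only 1 of 9 there, where 0.591% of 14392 genes were called. In striatum 0 of 9 were called by edgeR against 0.160% of genes, and Dbp had -1.25 ± 0.20 with an edgeR adjusted p of 0.0641. There an unadjusted p under 0.05 marked 2 of 9, against 1872 of 14392 genes, and DESeq2 called 1 of 9, against 447. Each fit without 1 library leaves 1 library for an age in 1 region, so numbers of called genes are not compared between those fits. Over the 8 such fits the striatal change of Dbp lay between -1.47 and -1.05. Its cortical change lay between -1.69 and -1.40, and its call in cortex did not hold in every fit. For the test of the difference between the regions, none of the 9 genes passed in edgeR, at an unadjusted p under 0.05, or in DESeq2, and of all 14392 genes edgeR called 0, DESeq2 17 and an unadjusted p under 0.05 marked 519. The fall of Dbp was larger in cortex than in striatum by 0.30 ± 0.28 (log2).

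The second comparison set HD mice against WT littermates at 13 weeks, fitted over the 12 libraries by genotype, age and region. Of the 9 genes other than Hlf, 5 were lower and none higher, namely Dbp, Nr1d2, Tef, Nr1d1 and Per1, where 4.26% of 14706 genes were lower. Both HD libraries lay below the WT library in both regions for 8 of the 9, all but Clock, against 22.6% of all genes tested. The median of the 9 was -0.79 on the log2 scale.

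**Figure D2:**
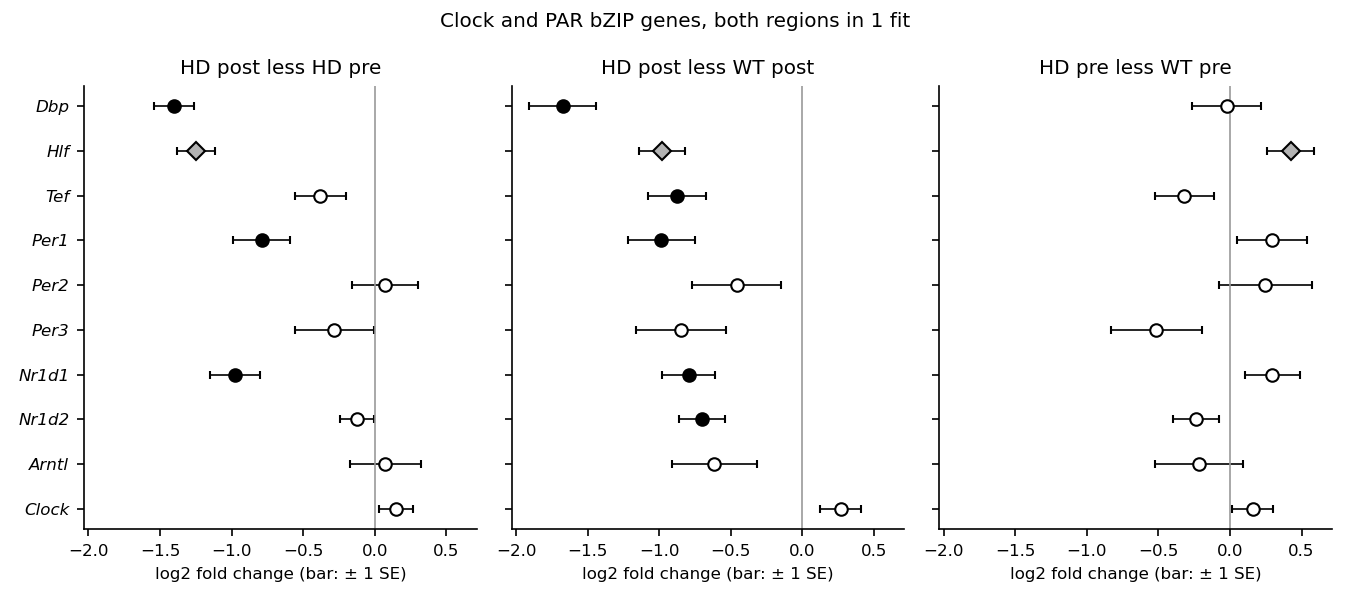
Fitted log2 fold changes of the 10 genes (x axis, bars ± 1 SE) in HD mice at 13 against 8 weeks, in HD against WT mice at 13 weeks, and in HD against WT mice at 8 weeks. Filled circles passed an adjusted p of 0.05, open circles did not, and grey diamonds mark Hlf, which was not tested. Dbp stands farthest below 0 in the first panel and the second, and no gene is filled in the third.

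Dbp stood at 175 CPM in the WT post-symptom-age striatum and 76.3 CPM in cortex, so that HD mice held 26.1% and 38.2% of the WT level (log2 fold change -1.67 ± 0.23, edgeR adjusted p = 0.00246). Hlf stood at 232 CPM and 294 CPM in WT mice, and HD mice held 41.5% and 61.2% of that (-0.98 ± 0.16, not tested). Tef, a gene that did not pass within HD mice, stood at 885 and 648 CPM in WT mice and differed by -0.88 ± 0.20 (edgeR adjusted p = 0.0232). All 3 PAR bZIP genes were therefore below the WT level in the 4 post-symptom HD libraries.

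Both REV-ERB genes were lower. Nr1d1 stood at 73.1 CPM in WT striatum and 98.0 CPM in WT cortex (-0.79 ± 0.19, edgeR adjusted p = 0.0243). For Nr1d2 the WT levels were 140 and 158 CPM (-0.70 ± 0.16, edgeR adjusted p = 0.0208). Per1, with 51.9 and 68.4 CPM in WT mice, differed by -0.98 ± 0.24 (edgeR adjusted p = 0.0264). The other 2 Per genes did not pass: Per3 had 16.3 and 17.3 CPM in WT mice (-0.85 ± 0.31, edgeR adjusted p = 0.127) and Per2 had 35.9 and 28.6 CPM (-0.46 ± 0.31, edgeR adjusted p = 0.436). Arntl stood at 13.6 and 12.1 CPM in WT mice, above all 4 HD post-symptom libraries, without passing the test (-0.61 ± 0.30, edgeR adjusted p = 0.252). Clock alone had higher HD values, at 60.6 to 70.6 CPM against 50.4 and 58.8 CPM (0.27 ± 0.14, edgeR adjusted p = 0.298).

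With 1 WT library per region, this test holds no spread between WT mice of an age and region. Without the WT post-symptom-age striatum library 0 of the 9 were called by edgeR, and 29 genes in all, down from 1082. Leaving out the WT cortex library of that age, HD post-symptom striatum replicate 1 or HD post-symptom cortex replicate 1 left 1 of the 9, which was Dbp each time. Tef was also lost without HD post-symptom striatum replicate 2 (edgeR adjusted p = 0.0534), and Per1 without HD post-symptom cortex replicate 2 (edgeR adjusted p = 0.0544). Activity-induced immediate early genes differed in the same comparison. They summed to 184 to 578 CPM over 12 genes in post-symptom HD libraries against 1000 and 1181 CPM in WT libraries, and 6 of 12 were called lower, including Egr2 (log2 fold change -4.31, edgeR adjusted p = 0.00657) and Arc (-2.74, edgeR adjusted p = 0.00806). Striatal projection neuron markers summed to 1327 and 1352 CPM in post-symptom HD striatum against 7442 CPM in WT striatum, and 4 of 7 tested were called lower. Of all genes tested, 4.26% were lower in this comparison. The part of the activity-induced genes or of the neuron markers in the clock genes' values was not tested.

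At 8 weeks none of the genes passed the test between the genotypes. By edgeR 0 of 9 genes were called, with 0 at an unadjusted p under 0.05 and 0 by DESeq2, where edgeR called 2.10% of 14706 genes. Over all genes, 2049 had an unadjusted p under 0.05 and DESeq2 called 674. Log2 fold changes of the 9 ran from -0.51 for Per3 to 0.30 for Nr1d1, with edgeR adjusted p-values of 0.520 or more. Dbp had -0.02 ± 0.24, which joins opposite values: HD striatum stood at 66.7% of the WT level and HD cortex at 154%, a contrast between regions that was not tested. Hlf was higher in all 4 HD pre-symptom libraries than in the WT library of the same region (135.8% and 132.2% of WT, log2 difference 0.42, not tested).

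In WT mice no gene of the set passed the test between the ages. By Xist the WT libraries were female at 13 weeks and male at 8 weeks, so age and sex cannot be told apart in them. The test of HD against WT changes below shares that limit. Of the 10 genes, 0 were called by edgeR, with 0 at an unadjusted p under 0.05 and 0 by DESeq2, where edgeR called 0.0136% of 14706 genes. Over all genes, 267 had an unadjusted p under 0.05 and DESeq2 called 11. Dbp stood at 167 and 175 CPM in WT striatum at 8 and 13 weeks and at 55.4 and 76.3 CPM in cortex, Hlf at 205 and 232 CPM and at 269 and 294 CPM. The largest fitted difference was that of Per2, at 0.77 ± 0.37 (edgeR adjusted p = 1), from 26.8 to 35.9 CPM in striatum and from 11.9 to 28.6 CPM in cortex. A test of whether HD and WT mice changed by different amounts called 0 of 9 genes, where 0.116% of genes were called. DESeq2 called 3 of 9, against 231 of 14706 genes, and an unadjusted p under 0.05 marked 3 of 9, against 1312 genes. Those 3 were Dbp (-1.65 ± 0.34, edgeR adjusted p = 0.119), Per1 (-1.28 ± 0.35, edgeR adjusted p = 0.216) and Nr1d1 (-1.09 ± 0.27, edgeR adjusted p = 0.191). Over the 12 fits without 1 library, Dbp ranged from -2.18 to -1.24. It was -1.80 without HD pre-symptom striatum replicate 2, a fit that leaves 1 library for that age and region.

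Between regions 2 of the 10 genes differed over all 12 libraries, where 20.6% of 14706 genes were called. Dbp was higher in striatum in 6 of 6 pairs of libraries (log2 fold change 0.81 ± 0.16, edgeR adjusted p = 0.00419), with the widest gap in WT mice. Pairs here share genotype, age and replicate number, and may not be of 1 mouse. Hlf was higher in cortex in all 6 (-0.54 ± 0.11, edgeR adjusted p = 0.00396). These PAR bZIP genes thus stood in opposite order across the regions while both were low in post-symptom HD mice. Nr1d1 was also lower in striatum in every such pair without passing (-0.35 ± 0.13, edgeR adjusted p = 0.0711), and the other 7 had adjusted p-values of 0.221 or more. For Nr1d1 this rests on the pairing, since HD post-symptom striatum replicate 2 (55.8 CPM) lay above HD post-symptom cortex replicate 1 (42.5 CPM).

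Dbp has a neighbour whose counts bear on its own. Sphk2, a sphingosine kinase gene at chr7:45709467-45718002 on the opposite strand, overlaps the end of Dbp by 737 bases, so that the 3′ ends of both, which this 3′ tag method reads, share the interval. How strand was used in counting is not given in the sources used here. Sphk2 less Dbp stayed between 23.2 and 46.0 CPM in the 12 libraries, while Dbp itself went from 26.6 to 175 CPM. That difference was 34.0 to 46.0 CPM in post-symptom HD libraries and 23.3 to 29.8 CPM in pre-symptom ones, so it did not fall with Sphk2. Sphk2 was lower in post-symptom than pre-symptom HD mice (log2 fold change -0.71 ± 0.11, edgeR adjusted p = 0.00812) and lower than in WT mice at 13 weeks (-0.97 ± 0.19, edgeR adjusted p = 0.0114). Reads from Dbp and Sphk2 cannot be told apart in the shared interval, and the values of both are uncertain to that extent.

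**Figure D3:**
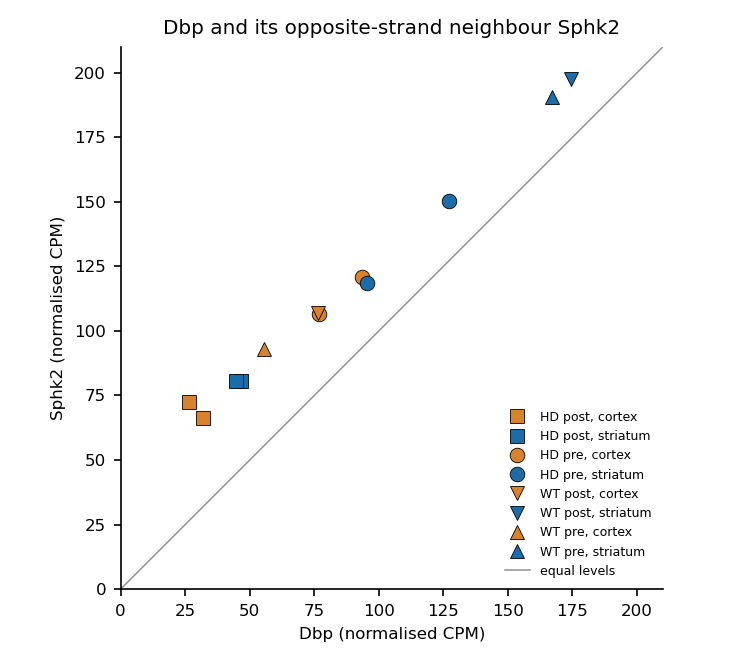
Normalised CPM of Sphk2 (y axis) against Dbp (x axis), with 1 point per library, shapes for genotype and age, blue for striatum and orange for cortex, and a grey line at equal levels. All 12 points lie 23.2 to 46.0 CPM above the line.

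Nr1d1 overlaps the end of Thra, the thyroid hormone receptor alpha gene on the opposite strand, by 1075 bases. Thra less Nr1d1 ran from -16.5 to 41.0 CPM, and Thra did not pass the test of age in HD mice (log2 fold change -0.47 ± 0.17, edgeR adjusted p = 0.129), so the rows were less alike than those of Dbp and Sphk2. Tef overlaps the antisense gene Gm17597 by 193 bases at its start, and Arntl and Clock overlap short genes within their bodies.

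The genes most like Dbp and Hlf over the 12 libraries were found by Pearson correlation of log2 CPM, centred within region, among 10779 genes with a mean of at least 5 CPM. Closest to Dbp were Sphk2 (r = 0.973), Scn4b (0.967), Ier5l (0.963), Chn1 (0.962) and Dlgap3 (0.959). Hlf was most like Tma7 (r = 0.976), Gabra4 (0.975), Syt1 (0.950), Gfod1 (0.950) and Rgs7bp (0.945). The points are libraries that share depth and composition, so these correlations are descriptive. No gene of the 10 was among the 5 most like either.

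The rest of the clock was read from a list of other core clock factors, chosen with earlier results known. In HD mice at 13 against 8 weeks, 3 of the 10 tested were called, 2 lower and 1 higher, where 6.45% of all genes were called in either direction, and the list median was -0.78 against 0.00 over all genes. Ciart (CHRONO), a repressor driven by CLOCK and BMAL1 whose promoter window held 3 E-boxes, fell 3.35-fold (log2 fold change -1.75 ± 0.27, edgeR adjusted p = 0.00742), from 10.8 and 18.9 CPM to 5.78 and 4.17 CPM in striatum and from 15.4 and 24.5 CPM to 5.59 and 4.86 CPM in cortex. Bhlhe40 (DEC1), a repressor also induced by activity, fell 2.19-fold (edgeR adjusted p = 0.0490, and 0.0619 without the oligodendrocyte-rich library). Cry1, a main repressor of CLOCK and BMAL1 with 1 E-box in its window, moved the other way. It rose 2.17-fold (log2 fold change 1.12 ± 0.21, edgeR adjusted p = 0.0147), from 22.1 and 12.3 CPM to 34.4 and 29.5 CPM in striatum and from 7.96 and 10.1 CPM to 24.4 and 20.8 CPM in cortex. Without 1 library the call of Ciart held in 8 of 8 fits, that of Cry1 in 3 of 8 (highest edgeR adjusted p = 0.0691) and that of Bhlhe40 in 2 of 8 (highest edgeR adjusted p = 0.163).

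**Figure D4:**
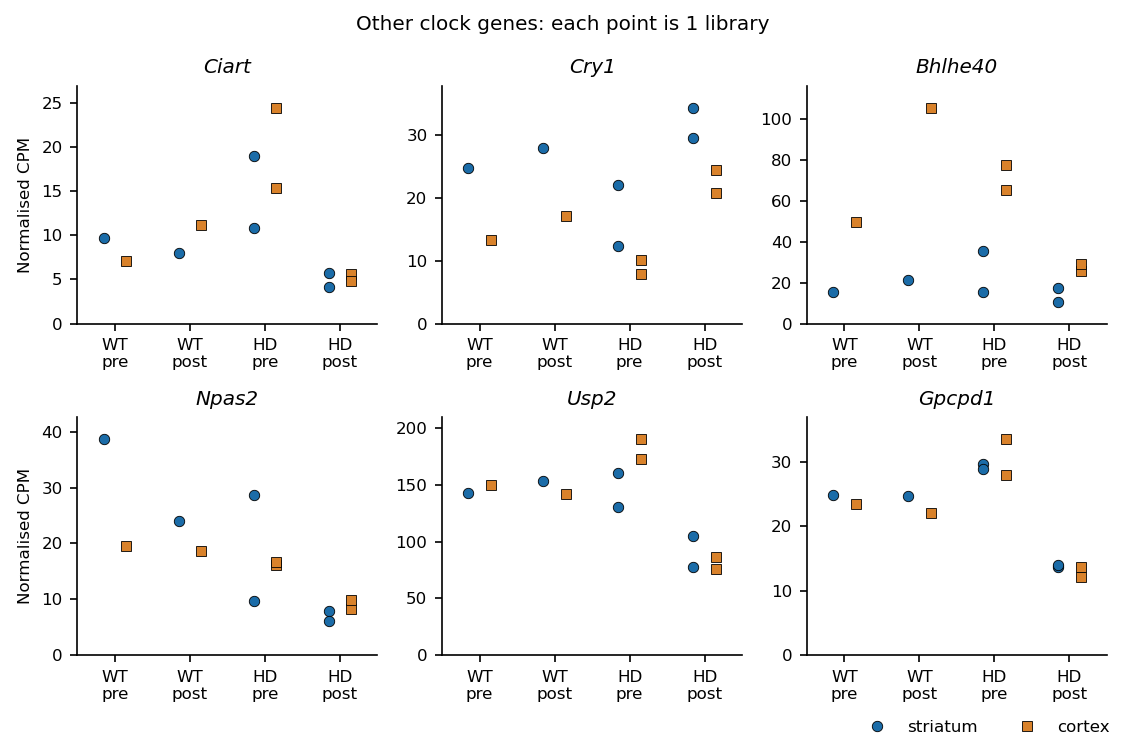
Normalised CPM (y axis, from 0) of 6 other clock genes in each of the 12 libraries, by genotype and age (x axis), with circles for striatum and squares for cortex. Cry1 is higher and Ciart, Usp2 and Gpcpd1 are lower in HD post-symptom than in HD pre-symptom libraries of the same region.

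Most genes that act on or downstream of the clock did not pass the same test. Usp2, a deubiquitinase of clock proteins and itself a clock output, was the 1 called of 10 kinases, ligases and related enzymes (log2 fold change -0.91 ± 0.16, edgeR adjusted p = 0.0113). That share is near the background, and the list median was 0.15. Among 10 clock-controlled output genes, with a median of -0.46, 4 were lower. They were Gpcpd1, a phosphodiesterase of choline metabolism (-1.15 ± 0.15, edgeR adjusted p = 0.00360), and Ciart, Usp2 and Bhlhe40, which the other lists also hold. Against WT mice at 13 weeks, where 7.36% of all genes were called in either direction, 2 of 11 core factors were lower, Bhlhe40 (-1.35, edgeR adjusted p = 0.0377) and Npas2, the paralog of Clock in forebrain (-1.39, edgeR adjusted p = 0.0436). Usp2 (-0.78, edgeR adjusted p = 0.0172), Gpcpd1 (-0.81, edgeR adjusted p = 0.0120) and Coq10b (-1.06, edgeR adjusted p = 0.0179) were lower as well, which made 1 of 10 enzymes and, with Bhlhe40, 4 of 10 output genes. Ciart (-0.90, edgeR adjusted p = 0.105) and Cry1 (0.29, edgeR adjusted p = 0.524) did not pass against WT mice at 13 weeks. At 8 weeks the HD libraries lay above the WT library of their region for Ciart and below it for Cry1. At that age no gene of the core, enzyme or output lists was called against WT mice.

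Differences between genes within a library do not depend on its scaling, and are compared here across libraries only. The log2 CPM of Dbp less that of Cry1 was 0.126 to 0.607 in the 4 post-symptom HD libraries, 2.51 to 3.24 in the pre-symptom HD libraries and 2.04 to 2.75 in the 4 WT libraries. The post-symptom HD values thus lay apart from the other 8. Nr1d1 less Cry1 was 0.0794 to 1.54 in post-symptom and 1.86 to 3.68 in pre-symptom HD libraries. In striatum it was 0.0794 and 0.914 in post-symptom HD libraries against 1.38 and 1.41 in WT mice. In cortex it was 0.797 and 1.54 against 2.50 and 2.80, so it was lower within each region. Hlf less Dbp was 1.07 to 2.78 in post-symptom and 0.998 to 2.26 in pre-symptom HD libraries. The HD ages overlapped in striatum, while in cortex post-symptom values (2.47 and 2.78) lay above pre-symptom ones (1.87 and 2.26). These differences were chosen after the changes of their genes were known and carry no test.

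**Figure D5:**
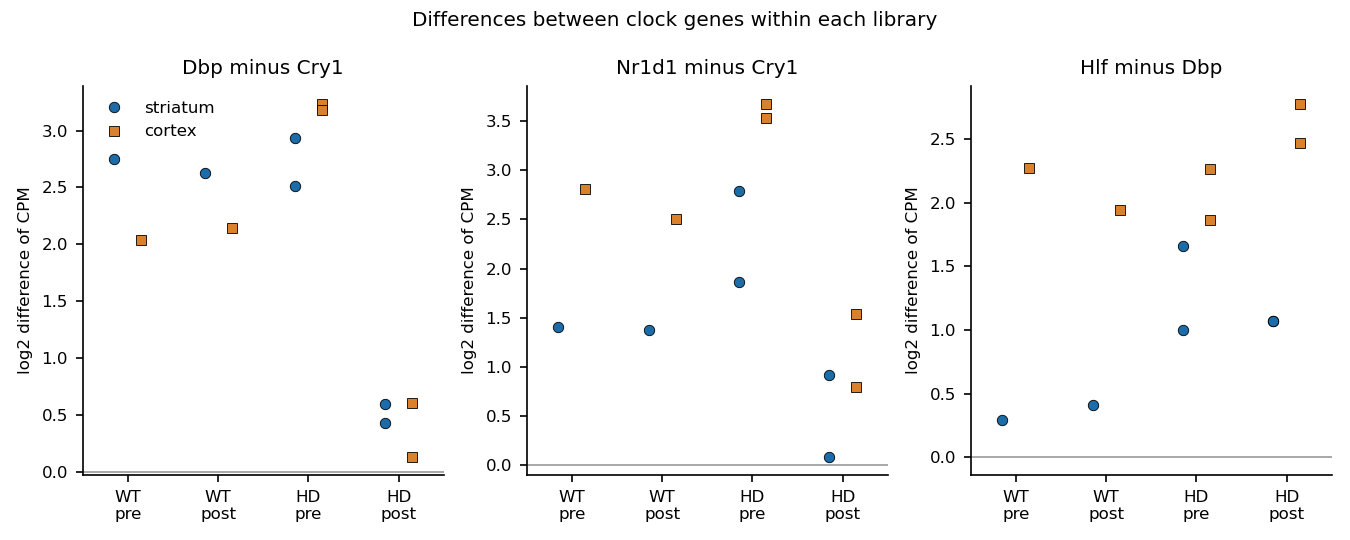
Differences of log2 CPM between genes of the same library (y axis), by genotype and age (x axis), with circles for striatum and squares for cortex. Dbp minus Cry1 is 0.126 to 0.607 in HD post-symptom libraries and 2.04 or more in the others. Nr1d1 minus Cry1 is lower in HD post-symptom libraries than in the other libraries of the same region. Hlf minus Dbp overlaps between the HD ages in striatum but not in cortex.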

How the data were processed

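RNA was extracted with Trizol from striatum and cortex of R6/2 and WT littermate mice, and libraries were made from 500 ng of total RNA with the Lexogen QuantSeq 3′ kit, per the labels. The authors deposited raw counts per gene symbol, 1 table per library. The submitters' processing notes name Bowtie2, bedtools and the build mm10. Versions, annotation and strand handling are not given in the sources used here. Of 23282 gene rows, 44 repeated a symbol. The 2 replicates of a group were further apart than counting error allows, with a chi-square of 6.27 to 63.5 per degree of freedom. The ribosomal precursor Rn45s took 10.5% to 15.2% of counts in HD and 4.32% to 5.62% in WT libraries.

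These deposited counts were fitted with edgeR 4.0.16 under R 4.3.3. The fit used TMM normalisation, a filterByExpr minimum count of 10 and the robust quasi-likelihood test, with p-values adjusted by Benjamini-Hochberg over all genes tested with a threshold of 0.05. The study states no test for these libraries. Standard errors are the log2 fold change over the square root of F. Log2 CPM for correlations used a prior count of 2. The labels name no molecular identifiers, so reads may not be independent molecules. Alternatives were DESeq2 1.42.0, upper-quartile normalisation, no filter, Rn45s left out, each library left out, the replicate number as a block and, with limma 3.58.1, the replicate number within each group as a random block. The fits were tested on simulated counts. Gene coordinates came from GENCODE M21 and promoters from RefSeq, both on the assembly mm10 stands for, GRCm38.

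The 10 genes and all lists were chosen with earlier results of these data known. All 10 are named in full, and from each other list the called genes, up to 4 per comparison with the smallest adjusted p. The 5 genes most like Dbp and Hlf are named, as are genes that overlap a member. Searching promoters for the ROR core and subtracting log2 levels of Cry1 were decided after values were seen.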

Additional observations from a re-analysis of the deposited data

Results flagged for a closer look

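For Hlf the change in HD mice less the change in WT mice was -1.40 on the log2 scale. It stands out because both post-symptom HD libraries lay below both pre-symptom ones in each region, while the WT library of 13 weeks lay above that of 8 weeks in each region. The difference was not tested, since the set was chosen for the fall of Hlf. By Xist the WT libraries were female at 13 weeks and male at 8 weeks, so age and sex cannot be told apart in them.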

How the results depend on the processing

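The direction of Dbp, Nr1d1, Per1 and Tef in HD mice at 13 against 8 weeks and against WT mice at 13 weeks was the same under all alternatives run. Per1 at 13 against 8 weeks was lost under upper-quartile normalisation (edgeR adjusted p = 0.0511). Of the 9 genes other than Hlf, DESeq2 called 1 in striatum, 2 in cortex and 3 for the difference between the HD and WT changes, no filter called 1 in striatum and 2 in cortex, and the replicate number as a block called 2 in cortex. Over all genes, DESeq2 called 1680 against 900 by edgeR for HD mice over both regions, 447 against 23 in striatum, 558 against 85 in cortex, 1813 against 1082 for HD against WT mice at 13 weeks and 674 against 309 at 8 weeks, 231 against 17 for the difference of changes and 11 against 2 for WT age. No filter gave 163 in striatum, 251 in cortex and 30 for the difference of changes. Upper-quartile normalisation gave 45 in cortex and 5 for the difference of changes, and the block gave 36 in striatum. The cause of these differences was not tested.

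Without 1 library, called genes among the 9 ranged from 1 to 4 over both regions. Within a region such fits leave 1 library for an age, so only the changes of Dbp are given above. Calls against WT mice at 13 weeks depended on single libraries, as given above, while the difference for Dbp stayed between -1.90 and -1.43. Log2 fold changes near 0 turned their sign with 1 library left out. In HD mice at 13 against 8 weeks Per2 ranged from -0.12 to 0.24 and Arntl from -0.10 to 0.23. In HD against WT mice at 8 weeks Per1 ranged from -0.0088 to 0.64, Per2 from -0.23 to 0.85, Dbp from -0.45 to 0.49 and Arntl from -0.53 to 0.13. In WT mice at 13 against 8 weeks Per3 ranged from -0.32 to 0.44, Dbp from -0.18 to 0.76 and Clock from -0.054 to 0.10. None of these was called.

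The replicate number is shared by HD groups in the labels, and it also separates the sexes by Xist. Libraries of the same number in different HD groups correlated at 0.002 to 0.185 in their deviations from group means, so the numbers were not taken to pair libraries. With the replicate number as a block, 1030 genes were called over both regions against 900 without it. Depth limited Arntl and Per3 most, with as few as 45 and 76 counts in a library.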

Other observations

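Other genes of the clock lists differed between the regions over all 12 libraries, by edgeR's quasi-likelihood test, in a comparison where 20.6% of all genes were called. Of 11 other core clock factors 4 were called, 2 in each direction. Cry1 was higher in striatum (log2 fold change 0.74 ± 0.16, edgeR adjusted p = 0.00657), as was Bhlhe41 (0.75 ± 0.14, edgeR adjusted p = 0.00256), and Bhlhe40, its paralog, was higher in cortex (-1.49 ± 0.24, edgeR adjusted p = 0.00133), as was Nfil3, the repressor that competes with PAR bZIP factors for D-boxes (-0.88 ± 0.25, edgeR adjusted p = 0.0265). Pdxk, the pyridoxal kinase known as a PAR bZIP target in brain, was higher in striatum (0.55 ± 0.13, edgeR adjusted p = 0.0114), like Dbp and unlike Hlf. It did not pass the test of HD mice at 13 against 8 weeks (-0.48 ± 0.16, edgeR adjusted p = 0.111). Of 10 kinases, ligases and related enzymes, 3 differed between regions, a share near that of all genes. Csnk1e was higher in cortex, and Prkaa1 and Sirt1 in striatum.

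Among 8 glucocorticoid-induced genes, Mt2, a metallothionein, was the 1 lower in HD mice at 13 against 8 weeks (log2 fold change -0.77 ± 0.17, edgeR adjusted p = 0.0280). In that comparison 4.53% of all genes were lower and 6.45% were called in either direction. None of the 8 was called against WT mice at 13 weeks, where 7.36% of all genes were called. Of the 12 activity-induced genes, none was called in HD mice at 13 against 8 weeks, against 6.45% of all genes. There Egr2 had an edgeR adjusted p of 0.0553 and Arc 0.0617.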
